A study of Homo sapiens with 6 samples.

Results

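The AP-1 genes described here are FOS, FOSB, FOSL1, FOSL2, JUN, JUNB, JUND and ATF3, and their peaks were taken by name from the gene column of 3 deposited peak lists. All 8 genes held a peak, of 10776 genes with a peak in any list, and together they carried 37 of 41729 peaks. The lists map N6-methyladenosine (m6A), a methyl mark on adenosines inside messenger RNA, in U2OS cells, a human osteosarcoma line that the labels give as wild type. Cells had received DF2 siRNA #1 (siRNA 1 here), DF2 siRNA #2 (siRNA 2) or a control siRNA. DF2 is YTHDF2, a cytoplasmic protein that binds m6A and brings the bound RNA to deadenylation and decay. Cytoplasmic RNA was broken to about 100 nt and pulled down with an anti-m6A antibody, and each condition had 1 pulled-down and 1 input library, 6 in all. The question the design puts is where m6A sits with YTHDF2 lowered and with YTHDF2 at its usual level.

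AP-1 is a transcription factor made of 2 basic leucine zipper (bZIP) proteins. JUN proteins pair with each other or with FOS proteins, whereas FOS proteins need a JUN partner to bind DNA, and ATF3 joins JUN proteins or pairs with itself. Most of these genes are switched on within minutes by growth factors and stress, and their RNAs are known for short lives. In mice, forced Fos expression is known to cause bone tumours.

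Each condition gave a single merged list, which leaves no spread between replicates and allows no test of any difference. The siRNA 1 list held 13147 peaks, the siRNA 2 list 13310 and the control list 15272. The depth of reads behind them is unknown. YTHDF2 RNA had 1 peak in each list, at score percentile 84.3 with siRNA 1, 66.6 with siRNA 2 and 99.1 in control, and peaks do not show how far its RNA was lowered. The labels call the cells epithelial. Of 9 epithelial marker genes, 2 (KRT8 and CLDN4) had a peak in each siRNA list and 0 in control. Of 9 osteoblast and mesenchymal markers, 3 had a peak with siRNA 1, 2 with siRNA 2 and 2 in control, and 0 of 3 blood markers had one. A peak needs both RNA and methyl mark, so its absence says little about expression. In RNA from bulk cells, less RNA per cell and fewer cells with the RNA cannot be told apart.

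Short stretches of sequence show which AP-1 and related motifs stand at the 5′ ends of these genes; no single motif was in all of them. RefSeq promoter windows (GRCh38.p14, 250 bases before to 50 bases after the start) were held for 7 of the 8 genes, all but FOSL1, with 2 windows for ATF3. AP-1 itself binds the letters TGACTCA, and its relatives of the CREB and ATF family bind TGACGTCA, so the capitals below mark TGACTCA, TGACGTCA, the related TGACATCA, or the shared part TGACGT. Both strands were searched, and TGACGT lies inside TGACGTCA.
JUN, chr1:58784096-58784125, minus strand: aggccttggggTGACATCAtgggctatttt
ATF3, chr1:212565273-212565302, plus strand: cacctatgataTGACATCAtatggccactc
JUND, chr19:18281804-18281833, minus strand: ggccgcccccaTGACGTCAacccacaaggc
FOS, chr14:75278752-75278781, plus strand: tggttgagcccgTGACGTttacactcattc
FOSB, chr19:45467924-45467953, plus strand: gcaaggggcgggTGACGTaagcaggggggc
FOSL2, chr2:28392851-28392880, plus strand: tgccattgtagTGACTCAtctcgggcagag

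Of the 8 windows, 6 held at least 1 of the 4 motifs, against 14.9% of 35116 promoter windows. TGACATCA stood in 2.61% of all windows, TGACGTCA in 1.85%, TGACTCA in 4.95% and TGACGT in 7.98%. The JUN, FOS and FOSB motifs began 67, 64 and 60 bases before the RefSeq start, and none of the 3 lay under a peak. FOSL2 also held TGACGT 66 bases before its start, not printed above. JUND held a further TGACGT on the other strand, 87 bases before its start. Neither lay under a peak. The FOSL2 TGACTCA began at base 5 of the transcript, and an m6A peak covered it in all 3 lists. These matches describe letters in a window and are not bound sites.

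The m6A writer complex prefers an adenosine in a short motif, searched here as 2 purines, AC and then any base but G. Searched on the transcribed strand alone, such a motif stood in the first 50 transcribed bases of 4 of the 8 windows and of 40.8% of all windows, so this content was not unusual. The capitals below mark those that 5′ peaks covered. They are shown because they lie in the first 50 bases after the RefSeq start of genes whose 5′ peaks are described further on.
FOSB, chr19:45467996-45468025, plus strand: attcataAGACTcagagctacggccacggc
FOSB, chr19:45468016-45468045, plus strand: cggccacggcagGGACAcgcggaaccaaga
FOSL2, chr2:28392878-28392907, plus strand: gagcgctagggctccgagcGAACCagcgag
FOS, chr14:75278848-75278877, plus strand: tctgagaagccaAGACTgagccggcggccg
The FOSB and FOSL2 motifs lay under a peak in all 3 lists, and the FOS motif under a peak with siRNA 1 and in neither other list. A further match in FOSB (GAACC) was covered in all 3 lists, and the match in JUNB, at base 2, lay just outside its peak.

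Each of the 8 AP-1 RNAs had a peak in each condition. Of all genes with a peak in any list, 77.6% had one with siRNA 1, 79.4% with siRNA 2 and 88.6% in control, and 65.4% had one in all 3. A control peak went with no siRNA 1 peak in 22.1% of control genes and with no siRNA 2 peak in 17.6%, and in 0 of these 8. The reverse, an siRNA peak with no control peak, was found in 11.0% of siRNA 1 genes and 8.04% of siRNA 2 genes, and in 0 of these 8. In all 8 the strongest control peak, that is the peak with the highest deposited score, overlapped a peak of the same gene in both siRNA lists, as it did in 95.5% of the 7048 genes with a peak in every list, so this count is near the background.

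Of the 37 peaks, 21 included the stop codon, 13 lay at the 5′ UTR without reaching the 3′ UTR, and 3 lay in the 3′ UTR. By list, the stop codon was in 7 of 13 peaks with siRNA 1, 7 of 12 with siRNA 2 and 7 of 12 in control, beside 43.5%, 43.7% and 42.9% of all peaks. The 5′ UTR class took 5 with siRNA 1, 4 with siRNA 2 and 4 in control, beside 18.9%, 16.6% and 14.4% of all peaks. By gene, the strongest peak included the stop codon in 7 of 8 genes with siRNA 1, 7 with siRNA 2 and 7 in control, against 53.4%, 53.0% and 52.8% of all genes with a peak. FOSL1 was the exception in each list, with no stop codon peak at all. Peaks that touch the 5′ UTR were found in 7 of the 8 genes with siRNA 1, 5 with siRNA 2 and 4 in control, beside 40.0%, 35.1% and 32.7% of all genes. More than 1 peak was found in 5 of the 8 genes with siRNA 1 (FOS, FOSB, FOSL1, FOSL2 and JUND), 3 with siRNA 2 and 3 in control (FOSB, FOSL1 and FOSL2 in both), beside 38.7%, 37.8% and 39.3% of all genes. Each of these genes had a 5′ UTR peak (FOSL2 a pair of them with siRNA 2 and in control) beside a stop codon or 3′ UTR peak, a combination found in 15.8% of all genes with siRNA 1, 14.0% with siRNA 2 and 13.5% in control.

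**Figure D1:**
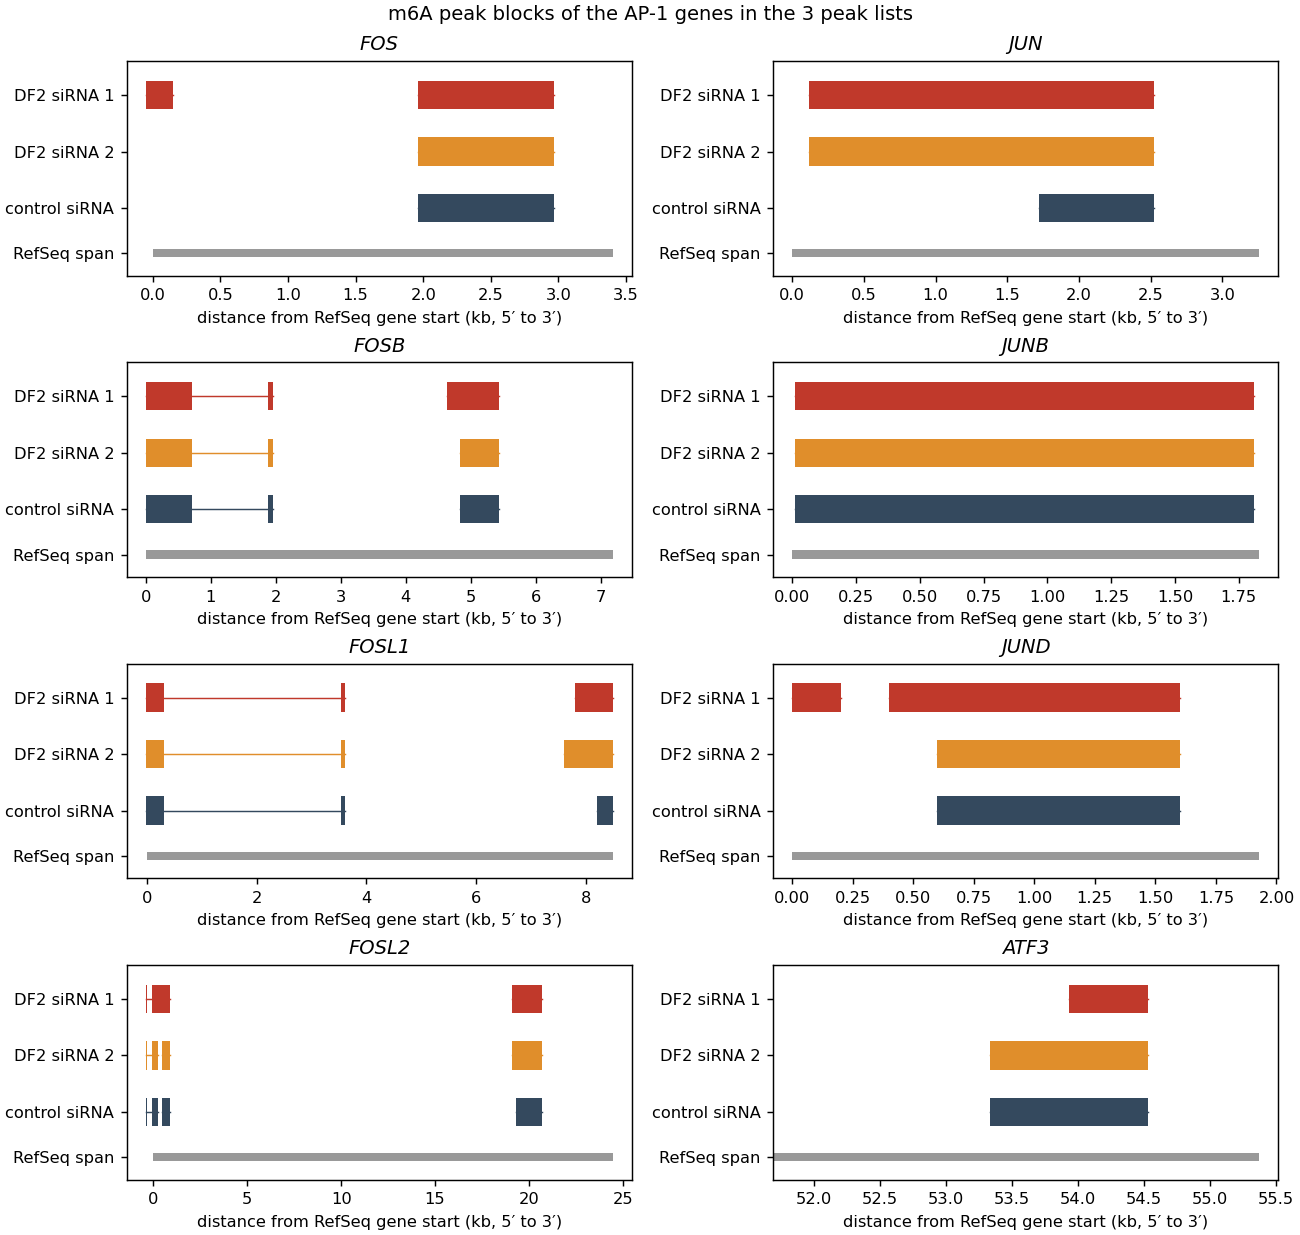
Blocks of the m6A peaks of each AP-1 gene with DF2 siRNA 1 (top), DF2 siRNA 2 and control siRNA, against the distance in kb from the RefSeq gene start, 5′ to 3′. Thin lines join blocks of 1 peak, the grey bar is the RefSeq gene span (shown for ATF3 in its last part alone), and JUN is covered from near its start with both DF2 siRNAs and only around the stop codon in control. In the caller's numbering of JUN peaks from 0, number 0 is missing in control.

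JUN, the founding member and the usual partner of FOS proteins, had the largest difference in covered length. Its gene (ENSG00000177606) has no intron and lies on the minus strand of chromosome 1 (RefSeq 58780791 to 58784047, 3257 bases). With siRNA 1 and with siRNA 2 the peak ran from 58781528 to 58783927, covered 2400 bases in 12 blocks of 200 and took in parts of both UTRs with the coding sequence between them. In the control list it ran from 58781528 to 58782327 and covered 800 bases around the stop codon. All 3 peaks thus shared their 3′ edge, 737 bases before the RefSeq end, and the 5′ edge lay 120 bases from the RefSeq start with each siRNA and 1720 bases from it in control.

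The ratio of JUN covered bases was 3 with either siRNA over control. Covered bases were at least 3 times those in control in 1.25% of genes with siRNA 1 and 0.766% with siRNA 2, and JUN was the AP-1 gene among them. Both ratios rest on the same control peak. The caller's names number the peaks of a gene from 0, and this control peak is number 1, with number 0 missing. In the AP-1 genes with more than 1 peak these numbers rise from 5′ to 3′. What the missing number stood for was not tested, so the control extent of JUN may be incomplete. The authors' fold enrichment of the JUN peak, within its own list, was 169 with siRNA 1, 98.2 with siRNA 2 and 69.5 in control. By fold the JUN peak stood at percentile 99.3, 97.4 and 95.8. By score it stood at percentile 98.8 with siRNA 1, 91.2 with siRNA 2 and 87.3 in control, so it was among the stronger peaks of each list. Percentiles from lists of different length stand side by side here and measure no change.

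JUNB, a JUN protein that is itself induced at once by growth signals, had a peak of the same extent in each list. Its intronless gene (ENSG00000171223, plus strand of chromosome 19) carried a single peak, from 12791496 to 12793295, with the same 9 blocks each time. That peak covered 1800 bases and 98.4% of the RefSeq span, from 5′ UTR to 3′ UTR. A single peak from 5′ UTR to 3′ UTR was found in 6.88% of genes with siRNA 1, 7.12% with siRNA 2 and 7.80% in control. JUNB was such a gene in each list, and JUN joined it in the siRNA lists. The JUNB score was 1948 with siRNA 1, 3727 with siRNA 2 and 4115 in control, which is rank 27, 58 and 185 among the peaks of its list. The fold was 143 with siRNA 1, 69.6 with siRNA 2 and 57.1 in control, at percentile 98.8, 92.8 and 90.9.

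JUND, the JUN protein that cells make most steadily, had its main peak around the stop codon. The gene (ENSG00000130522) is intronless and lies on the minus strand of chromosome 19. The siRNA 1 peak ran from 18280023 to 18281222 and covered 1200 bases, and the siRNA 2 and control peaks both ran from 18280023 to 18281022 and covered 1000 bases. Its score was 1671 with siRNA 1, 6334 with siRNA 2 and 3421 in control, at ranks 36, 15 and 287. The rank of 15 with siRNA 2 was the highest of any AP-1 peak. Its fold was 260 with siRNA 1, 97.5 with siRNA 2 and 58.1 in control, at percentile 99.8, 97.3 and 91.4.

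In the siRNA 1 list JUND also had a separate 200-base peak at 18281423 to 18281622, which begins at the RefSeq start of the gene and covers 5′ UTR and coding sequence. That peak had a score of 43 and a fold of 9.36, and its FDR of 0.0386 was close to the limit of 0.05 that the deposited peaks meet. It was not in the siRNA 2 or control list.

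FOS, the founding FOS protein and a classic immediate-early gene, kept its stop codon peak with exactly the same edges in all 3 lists. The peak lay on the plus strand of chromosome 14 (ENSG00000170345) from 75280793 to 75281792 and covered 1000 bases. Its score was 34 with siRNA 1, 224 with siRNA 2 and 309 in control, at percentile 50.5, 68.6 and 63.1. The fold was 14.1 with siRNA 1, 23.1 with siRNA 2 and 20.9 in control. FOS thus lay near the middle of each list, and it had the lowest score percentile of the 8 genes in both siRNA lists.

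With siRNA 1 FOS also held a 200-base 5′ UTR peak from 75278774 to 75278973, which starts 54 bases before the RefSeq start. Its score was 6 and its fold 5.17, with an FDR of 0.0397, so it was weak like the 5′ peak of JUND. The stop codon peak of ATF3 with siRNA 1 was the third with an FDR of 0.01 or more. These were 3 of the 13 AP-1 peaks with siRNA 1, against 0 of 12 with siRNA 2 and 0 of 12 in control. Of all peaks, 17.3% with siRNA 1, 17.3% with siRNA 2 and 18.8% in control had such an FDR.

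FOSB, an immediate-early FOS protein known for a long-lived splice form in neurons, carried a 5′ peak and a stop codon peak in each list. The gene (ENSG00000125740) lies on the plus strand of chromosome 19. Its 5′ peak, over 5′ UTR and coding sequence, ran from 45467995 to 45469957 with the same 5 blocks in all 3 lists and covered 800 bases across an intron. The stop codon peak ran from 45472627 to 45473426 with siRNA 1 and from 45472827 to 45473426 with siRNA 2 and in control, so it was 1 block of 200 bases longer with siRNA 1.

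The stop codon peak of FOSB stood apart by how its measures disagree in the control list. Its score was 728 with siRNA 1, 857 with siRNA 2 and 123 in control, at percentile 98.6, 92.1 and 45.9. Its fold was 202 with siRNA 1, 134 with siRNA 2 and 69.7 in control, at percentile 99.6, 99.2 and 95.8. The −log10 FDR was 71.3 with siRNA 1, 37.5 with siRNA 2 and 29.95 in control, at percentile 99.5, 99.2 and 99.2. In control it was thus among the surest and most enriched peaks and yet below the middle by score. Of peaks above percentile 95 by fold, 0 of 657 with siRNA 1, 0 of 665 with siRNA 2 and 17 of 764 (2.23%) in control had a score below the middle of their list. The control FOSB peak is 1 of those 17.

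The FOSB 5′ peak also stood lower in the control list than in the siRNA lists, by score and by fold. Its score was 268 with siRNA 1, 350 with siRNA 2 and 44 in control, at percentile 92.4, 78.1 and 29.7. Its fold was 57.5 with siRNA 1, 38.3 with siRNA 2 and 15.4 in control, at percentile 89.7, 77.7 and 40.8. Among the 8 genes, FOSB ranked 5 by score with siRNA 1, 4 with siRNA 2 and 8 in control. By fold it ranked 3, 2 and 2.

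FOSL2 (FRA-2), a FOS relative known for a role in bone-forming cells of mice, had the strongest peak of the family by score in control. Its gene (ENSG00000075426) lies on the plus strand of chromosome 2. The stop codon peak ran from 28411956 to 28413555 with both siRNAs and covered 1600 bases. In control it ran from 28412156 to 28413555 and covered 1400 bases. Its score was 1621 with siRNA 1, 4341 with siRNA 2 and 5002 in control, at percentile 99.7, 99.7 and 99.2. Its fold was 228 with siRNA 1, 135 with siRNA 2 and 87.6 in control, at percentile 99.8, 99.2 and 98.9. By score it ranked 3 among the 8 genes with siRNA 1, 2 with siRNA 2 and 1 in control.

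At the 5′ end FOSL2 had 1 peak with siRNA 1 and 2 with siRNA 2 and in control. With siRNA 1 it spanned 28392448 to 28393725, with 1000 bases covered. With siRNA 2 and in control the same stretch held 1 peak from 28392448 to 28393125 and another from 28393326 to 28393725, each of 400 bases and with equal edges in both lists. The single siRNA 1 peak thus filled the 200 bases between them. The first of the pair had a fold of 33.7 with siRNA 2 and 20.9 in control, the second 30.6 with siRNA 2 and 14.0 in control, and the single peak 36.0 with siRNA 1.

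FOSL1 (FRA-1), a FOS relative tied to invasive growth of tumour cells, differed from the rest in having no stop codon peak. The gene (ENSG00000175592) lies on the minus strand of chromosome 11. Its 5′ peak ran from 65896940 to 65900573 with the same 3 blocks in all 3 lists and covered 400 bases on both sides of an intron. The 3′ UTR peak began at the RefSeq end of the gene, 65892049, and reached 65892735 with siRNA 1, 65892935 with siRNA 2 and 65892335 in control. It covered 687 bases with siRNA 1, 887 with siRNA 2 and 287 in control, so it reached farther upstream with each siRNA and farthest with siRNA 2.

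The fold of this FOSL1 3′ UTR peak was 33.2 with siRNA 1, 48.1 with siRNA 2 and 12.7 in control. Its score was 56 with siRNA 1, 148 with siRNA 2 and 62 in control, at percentile 63.4, 59.1 and 34.8. The 5′ peak had a fold of 22.4 with siRNA 1, 29.9 with siRNA 2 and 26.1 in control. By score the 3′ UTR peak was the stronger with siRNA 1 and the 5′ peak the stronger with siRNA 2 and in control. By fold the 3′ UTR peak led in both siRNA lists and the 5′ peak in control. Within the RefSeq span of any of the 8 genes lay 0 peaks given to other genes. Signal of a neighbouring RNA that was given to one of the 8 genes would not show in this count.

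ATF3, a stress-induced bZIP protein that often represses its targets, was the only AP-1 gene with fewer covered bases under an siRNA than in control. Its gene (ENSG00000162772) lies on the plus strand of chromosome 1. The stop codon peak ran from 212619338 to 212619937 with siRNA 1 and covered 600 bases. With siRNA 2 and in control it ran from 212618738 to 212619937 and covered 1200 bases. Its score was 121 with siRNA 1, 340 with siRNA 2 and 412 in control, at percentile 81.2, 77.5 and 68.5.

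Among the strongest peaks of the 8 genes, that of ATF3 had the lowest fold in every list, at 12.3 with siRNA 1, 12.1 with siRNA 2 and 15.01 in control. Those are percentiles 41.7, 28.8 and 39.5, well below its place by score. The −log10 FDR was 1.94 with siRNA 1, 3.04 with siRNA 2 and 4.74 in control. The siRNA 1 peak, with an FDR of 0.0116, is the one AP-1 call at a stop codon that an FDR limit of 0.01 would remove.

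**Figure D2:**
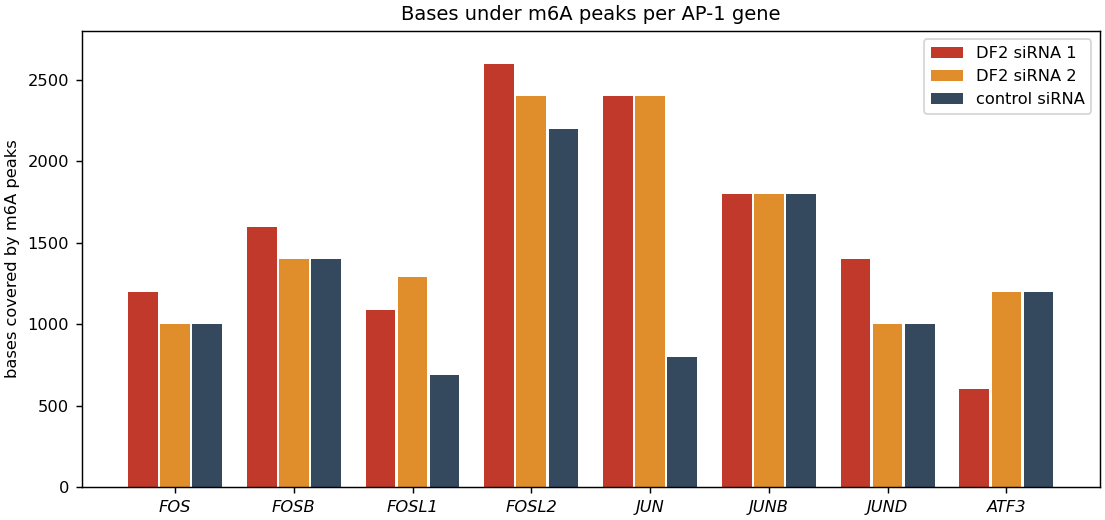
Bases under m6A peaks per AP-1 gene (vertical axis, in bases) with DF2 siRNA 1, DF2 siRNA 2 and control siRNA, 1 bar per list with no replicate error. JUN has 2400, 2400 and 800 bases, JUNB 1800 in each list, and ATF3 600, 1200 and 1200.

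Over the family, the 8 genes had 12687 covered bases with siRNA 1, 12487 with siRNA 2 and 10087 in control. Over the genes with a peak in every list the sums ran the other way, at 8510030, 9244128 and 10481160 bases. Of the bases of the 8 genes, 1600 in JUN lay outside its control peak with each siRNA, so the family sums rest largely on JUN. They thus share the limit of its control peak, the missing number 0. More bases than in control were covered in 6 of 8 genes with siRNA 1 and 3 of 8 with siRNA 2, beside 21.0% and 23.2% of all such genes. Fewer bases were covered in 1 of 8 (ATF3) with siRNA 1 and 0 of 8 with siRNA 2, beside 56.8% and 47.8%. The median ratio to control was 1.19 for the 8 genes and 0.862 for all with siRNA 1, and 1.00 for both with siRNA 2. FOSL1, FOSL2 and JUN were above control in both siRNA lists, a pattern in 13.5% of genes. The ratio was over 1.5 for JUN and FOSL1 with each siRNA (FOSL1 1.58 with siRNA 1 and 1.87 with siRNA 2), beside 6.74% of genes with siRNA 1 and 5.72% with siRNA 2. Every base under a control peak was also under a peak in both siRNA lists in 7 of the 8 genes, all but ATF3, and in 28.6% of all genes. With 1 list per condition these counts are a description.

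Some edges did not move at all. Of the 12 control peaks, 4 had the same blocks in both siRNA lists, namely the FOS stop codon peak, the 5′ peaks of FOSB and FOSL1, and the JUNB peak, beside 16.5% of all control peaks. Where a stop codon peak differed in extent, its 5′ edge differed and its 3′ edge was the same in each list. That was so in JUN, JUND, FOSB, FOSL2 and ATF3. The share of all genes with this pattern was not counted, so it cannot be called particular to AP-1 genes.

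**Figure D3:**
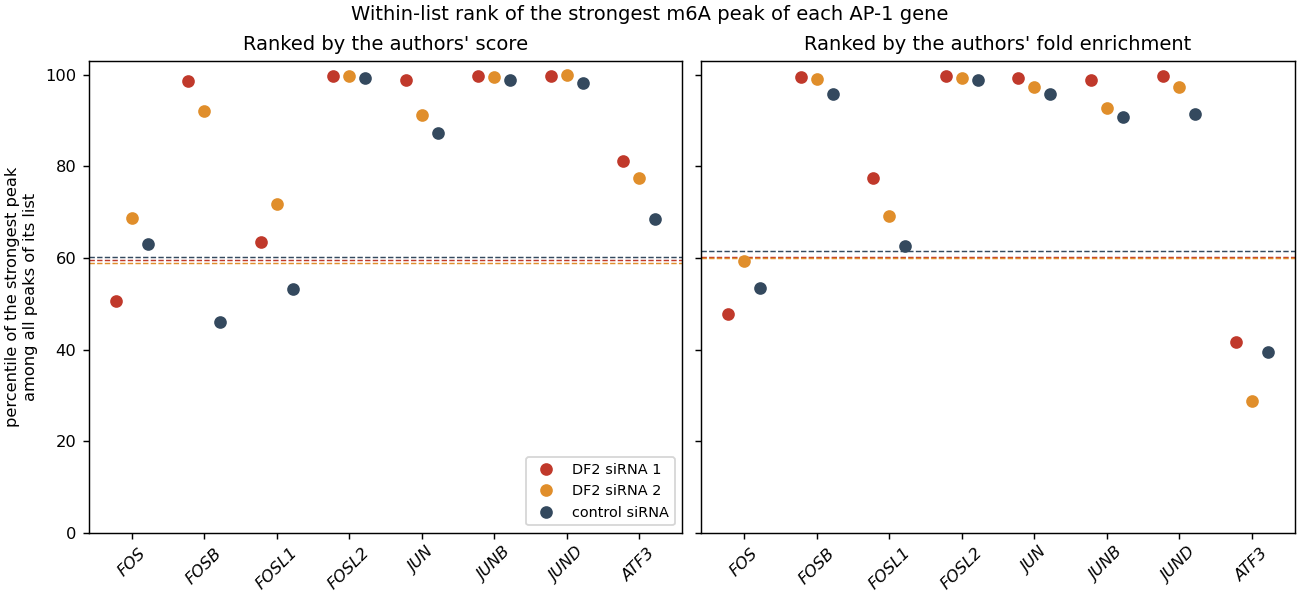
Percentile of the strongest m6A peak (by score) of each AP-1 gene among all peaks of its list, ranked by score (left) and by fold enrichment (right), with DF2 siRNA 1, DF2 siRNA 2 and control siRNA. Dashed lines give the median over all genes of each list, and the control FOSB peak lies at 45.9 by score and 95.8 by fold.

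By score, the strongest peaks of FOSL2, JUNB and JUND lay in the top 10% of every list. FOSB and JUN were in the top 10% with both siRNAs, which gave 5 of 8 genes with siRNA 1, 5 with siRNA 2 and 3 in control, beside 14.1%, 14.0% and 14.2% of all genes. The median percentile of the 8 genes was 98.7 with siRNA 1, 91.6 with siRNA 2 and 77.9 in control, beside 59.5, 58.9 and 60.1 over all genes of the list. By fold enrichment the median percentile of the 8 genes was 99.0 with siRNA 1 and 95.04 with siRNA 2, beside 60.2 and 60.0 over all genes. FOSB, FOSL2, JUN, JUNB and JUND lay in the top 10% by fold in each list. The share of all genes in the top 10% by fold was not counted, and with the strongest peak of each gene used it need not be 10%. The control median of the 8 genes by fold was 91.1, beside 61.6 over all genes of that list. FOS, FOSL1 and ATF3 stayed outside the top 10% by score and by fold in every list.

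The genes whose place in the lists was most like that of an AP-1 gene were sought among genes with the same region class in each list, by the largest of 3 differences in score percentile. JUN had TMEM132A (1.37 points) and EGR1, another immediate-early transcription factor (1.60 points), as its nearest. JUNB was nearest to FEN1 (0.354) and BHLHE40 (0.403), JUND to FEN1 (0.314) and DAPK3 (0.334), and FOSL2 to LRFN4 (0.223) and LY6K (0.229). FOS was nearest to MED29 (1.59) and FOXF2 (2.94), and ATF3 to ZFTRAF1 (1.37) and ZFP36L1 (2.28). FOSB had no close gene, with FAM171A2 at 14.7 points and ADM at 17.9 points, and its candidates numbered 3540. For FOSL1 there were 5 candidates, and the nearest were DST (25.03) and HDGF (32.3). Each likeness rests on 3 lists.

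Genes that work with AP-1 were counted in 6 lists, with the 8 genes themselves left out and CREB1 in 2 lists. Those named as highest have the highest mean score percentile among genes of their list with a peak in all 3 conditions. Values in parentheses are score percentiles of the strongest peak, with siRNA 1, siRNA 2 and control in that order where there are 3. Of 29 other bZIP proteins, which can pair with FOS or JUN proteins or bind related sites, 20 had a peak with siRNA 1, 21 with siRNA 2 and 21 in control. Of the 21 with any peak, 20 had one in all 3 lists. NFE2L1, a stress-responsive factor (99.0, 98.4 and 99.6), CEBPB (98.7, 98.7 and 98.1) and CREM (98.9, 98.3 and 95.3) stood highest. CREB5 alone was missing from a list, that of siRNA 1, with percentiles of 8.14 with siRNA 2 and 1.27 in control.

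The kinases of the JNK, ERK and p38 routes, which phosphorylate JUN and FOS proteins or the factors that induce them, had a share in all 3 lists close to that of all genes. Of 26, a peak was found for 18 with siRNA 1, 18 with siRNA 2 and 20 in control, and 14 of 23 with any peak had one in every list, beside 65.4% of all genes. MAP3K11, a kinase upstream of JNK (96.7, 97.0 and 93.0), RPS6KA1 (93.0, 94.2 and 87.5) and MAP2K4, which activates JNK (82.5, 80.6 and 86.3), stood highest. MAP2K1 (46.1 and 45.4) and MAP2K3 (67.2 and 85.4) had peaks with siRNA 1 and siRNA 2 and not in control. The FDR of MAP2K1 was 3.55e-05 with siRNA 1 and 0.0261 with siRNA 2, and that of MAP2K3 0.000153 and 9.86e-05. MAP2K6, an activator of p38 (46.5), had a peak in control alone, as did RPS6KA3 (72.3), named after its value was seen. MAP2K5 lacked a siRNA 1 peak and MAP3K2 a siRNA 2 peak. Their control peaks had an FDR of 0.0122 and 0.0221, and their siRNA peaks 6.35e-05 and 0.00424.

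Of 12 factors that drive the FOS and JUN genes, 9 had a peak with siRNA 1, 8 with siRNA 2 and 9 in control, with 8 of 10 in all 3 lists. SP1 (88.7, 95.2 and 96.6), MRTFA, a cofactor of SRF (92.2, 93.8 and 87.1), and SRF, the serum response factor (88.3, 92.3 and 81.2), stood highest. ELK1, which binds the FOS promoter with SRF, had a peak with siRNA 1 alone (65.7), and STAT3 in control alone (3.26). Their FDR was 0.00253 and 0.0165.

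Of 11 proteins that bind AU-rich elements, sequences that speed the decay of FOS and JUN RNA, 9 had a peak with siRNA 1, 7 with siRNA 2 and 7 in control, with 6 of 9 in all 3 lists. ZFP36L2, which promotes decay (99.2, 99.6 and 98.5), KHSRP (90.2, 96.0 and 92.1) and TIAL1 (78.6, 80.0 and 87.9) stood highest. HNRNPD, also known as AUF1, had a peak with siRNA 1 (62.5) and siRNA 2 (61.7) and not in control. PUM2 lacked a siRNA 2 peak, and TIA1 had a peak with siRNA 1 alone, at an FDR of 0.0167.

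Of 14 ubiquitin ligases and cofactors of AP-1, 9 had a peak with siRNA 1, 8 with siRNA 2 and 8 in control, with 8 of 9 in all 3 lists. The acetyltransferases EP300 (97.3, 97.0 and 98.0) and CREBBP (92.6, 94.9 and 91.7) and FBXW7, which marks JUN for breakdown (74.5, 74.5 and 81.4), stood highest.

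Of 27 reported AP-1 target genes, 13 had a peak with siRNA 1, 12 with siRNA 2 and 12 in control, with 11 of 14 in all 3 lists. Highest among those 11 were TGFB1 (99.7, 97.5 and 92.5), VEGFA (92.6, 96.4 and 96.3) and DUSP1 (85.8, 82.3 and 88.7). DUSP1 is a phosphatase that turns MAP kinases off. The cell cycle inhibitor CDKN1A (91.8) and the protease inhibitor TIMP1 (88.3) had a peak with siRNA 1 alone, and HMOX1 lacked a siRNA 1 peak.

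**Figure D4:**
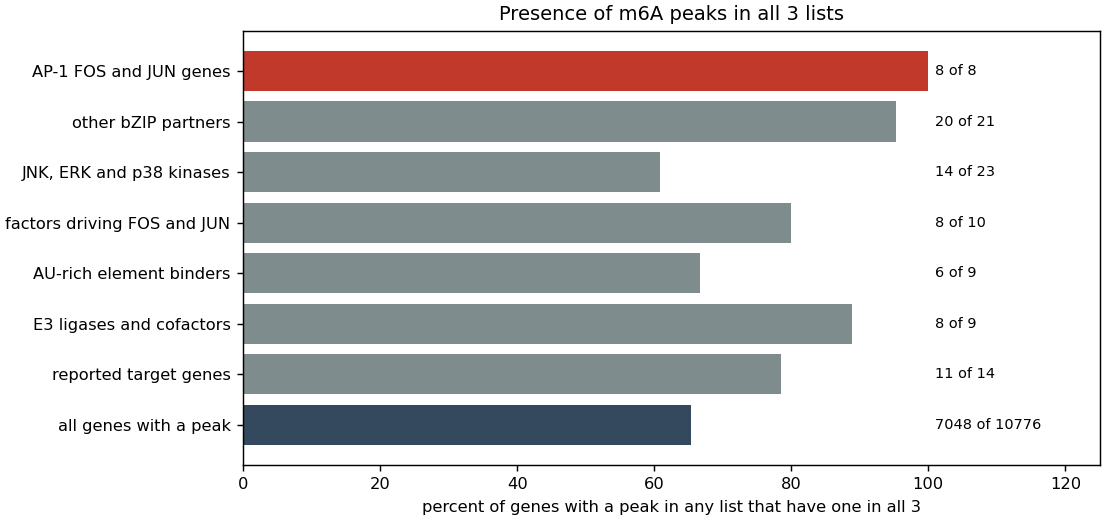
Share of genes (percent, horizontal axis) with a peak in all 3 lists among those with a peak in any, for the 8 AP-1 genes, the 6 lists of related genes and all genes. The AP-1 genes are at 8 of 8, the other bZIP proteins at 20 of 21, the kinases at 14 of 23 and all genes at 7048 of 10776.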

How the data were processed

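Per the submitters' processing notes, reads were aligned with HISAT2 to hg38, while the peak caller, the rule of merging and the annotation were not stated in the labels or headers used. A single merged list was deposited by the authors for each condition. It is marked as holding r1 and r2, although the labels name a single input and a single pulled-down sample. The deposited score is a whole number of undefined meaning (median 33 with siRNA 1, 99 with siRNA 2 and 158 in control), so it was ranked only within a list. The fold enrichment (ratio) and the −log10 FDR of each peak are also the authors' values, per the file headers. The median fold over all peaks was 14.9 with siRNA 1, 18.7 with siRNA 2 and 19.1 in control. All peaks had an FDR under 0.05. AP-1 peaks away from introns and transcript ends covered multiples of 200 bases, so their edges move in such steps.

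Starts were raised by 1. Block sizes of minus-strand peaks run against their starts in the files and were turned round, which made each block list end at its peak's end. Symbols were updated through RefSeq GRCh38.p14 (8843 of 10785 current, 658 updated). Overlap meant 1 base or more of a block, strand matched. A percentile is the mid-rank among all peaks of a list. Overlap code was tested on simulated data. Members, lists and alternatives were chosen with earlier results of these data known. Named genes were all 8 members, up to 6 genes per list missing from some peak list, in alphabetical order, the 3 with the highest mean percentile, the 2 nearest genes per member, and YTHDF2. Some genes that this rule names are not reported here. Python 3.11.15 and pandas 2.3.3 were used.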

Additional observations from a re-analysis of the deposited data

How the results depend on the processing

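All 8 AP-1 genes kept a peak in every list when lists were cut to equal length by score and with peaks assigned by RefSeq span. With an FDR under 0.01 there were 7 (ATF3 left the siRNA 1 list), in the top 50% by score 7 (FOSB left control), and in the top 50% by fold 6 (ATF3 left every list and FOS that of siRNA 1). Of all genes with a peak left in any list, 68.4% had one in all 3 at equal length, 63.6% with an FDR under 0.01, 66.3% in the top 50% by score and 58.7% in the top 50% by fold. Overlap of the strongest control peak with any peak of the same gene in both siRNA lists was counted under other settings too. It held in 8 of 8 with gaps of up to 100 bases, with strand ignored and by fold. It held in 7 when 50% of each peak had to be shared (not JUN) and in 7 with an FDR under 0.01. Stop codon counts stayed at 7 in each list by fold and with any peak of the gene. The median percentile of the 8 genes moved by fold to 99.0 with siRNA 1, 95.04 with siRNA 2 and 91.1 in control. By −log10 FDR it was 98.1 with siRNA 1 and 85.0 in control, and among the strongest peak of each gene 98.0, 88.2 and 70.7. With an FDR under 0.01 it was 90.01 with siRNA 2 and 74.0 in control. In the top 50% by score, 5 factors that drive FOS and JUN, 5 ligases and cofactors, and 5 target genes were present in all 3 lists, and with an FDR under 0.01 there were 6 target genes. No paired analysis was possible because each condition has 1 merged list. Read depth is unknown, and no replicate could be left out.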

Other observations

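The caller's names number the peaks of a gene from 0, and some numbers are missing from the lists. JUN lacks number 0 in the control list, where its only peak is number 1, while its single wide peak is number 0 in both siRNA lists. ATF3 lacks number 0 in both siRNA lists, where its peak is number 1. Such gaps occur in 21.8% of genes with siRNA 1 and 22.2% in control, with siRNA 2 between them. What the missing numbers stood for was not tested.

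Score and fold enrichment order peaks differently by list, with a Spearman correlation across peaks of 0.929 with siRNA 1, 0.825 with siRNA 2 and 0.769 in control. Peaks are not independent replicates, and this is a description.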
